A study of Mus musculus with 6 samples.

Results

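Papilloma 2 was compared with papilloma 1, a pair of benign skin lesions that make up 2 of the 6 libraries of the series, and the healthy skin and tumour biopsies served as reference levels. The papilloma libraries were identified by their labels, and the comparison and the gene lists were chosen with earlier results of these data known. Both papillomas and the tumour came from mouse skin painted with DMBA, a mutagenic hydrocarbon that starts tumours, and TPA, a phorbol ester that makes keratinocytes proliferate; the skin biopsy is labelled healthy, with no treatment named. The labels give no strain, sex, age or treatment length for any of these biopsies, and they do not say whether the papillomas grew on 1 mouse. Each biopsy is 1 library of whole tissue, so no difference between the papillomas has a replicate check, no test was possible and no p-value is given. In such bulk tissue, fewer cells of a type and less RNA per cell cannot be told apart.

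A skin papilloma is an outgrowth of thickened epidermis over a core of dermis. Its keratinocytes mature from a basal layer (Krt5, Krt14) through spinous layers (Krt1, Krt10) to a granular and a cornified layer, where loricrin, small proline-rich and late cornified envelope proteins are crosslinked into the cell envelope. Hair follicles are a separate epithelial lineage with their own keratins: the inner root sheath moulds the growing hair, the shaft is packed with hair keratins and keratin-associated proteins, and pigment cells in the bulb supply melanin. Keratins of the mouth and oesophagus (Krt4, Krt13) are scarce in healthy skin, and their appearance in skin papillomas is a known feature of lesions that have moved towards carcinoma.

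Raw counts per gene model were deposited for all 4 biopsies. They summed to 41462120 in skin, 25140489 in papilloma 1, 29982455 in papilloma 2 and 42992597 in the tumour. Levels are given as CPM (counts per 1000000, scaled by TMM over the 4 biopsies), 3 counts being 0.0594, 0.139, 0.104 and 0.0701 CPM in the same order. The labels give RNA integrity numbers of 8.4 for papilloma 1 and 8.2 for papilloma 2, against 7.5 for skin and 9.1 for the tumour. Keratinocyte keratins were high in both lesions: Krt14 was the most counted gene in each, and Krt5, Krt1 and Krt10 were at 6442 CPM or more in each. Genes were described by a rule of size, at least 4-fold apart, after 0.5 CPM was added to each side, with at least 10 CPM in the higher library; 2-fold counts were made in the same way. Ratios carry an exact Clopper-Pearson 95% interval, which covers counting error only, and the printed ratios, unlike the log2 ratios, have nothing added.

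Across 14131 gene models the papillomas were close, with a Pearson r of 0.964 for log2 (CPM + 1), a description across genes, which are not replicates. Of 9919 models with at least 10 CPM in either lesion, 108 (1.09%) were at least 4-fold higher in papilloma 2 and 9 (0.0907%) were at least 4-fold lower. At 2-fold the counts were 189 (1.91%) and 65 (0.655%). Of the 108, 64 belonged to lists of hair genes and 7 to the melanocyte list, so hair and pigment genes made up most of what was 4-fold higher in papilloma 2. Of the 189 models 2-fold higher, 121 were in no hair list. Among the lower models were Bpifa5, Plch1, 2300002M23Rik, Sprr3, Ltf, Krt13, Gpx2 and Krt4, which include both best-known keratins of mucosal epithelium.

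**Figure D1:**
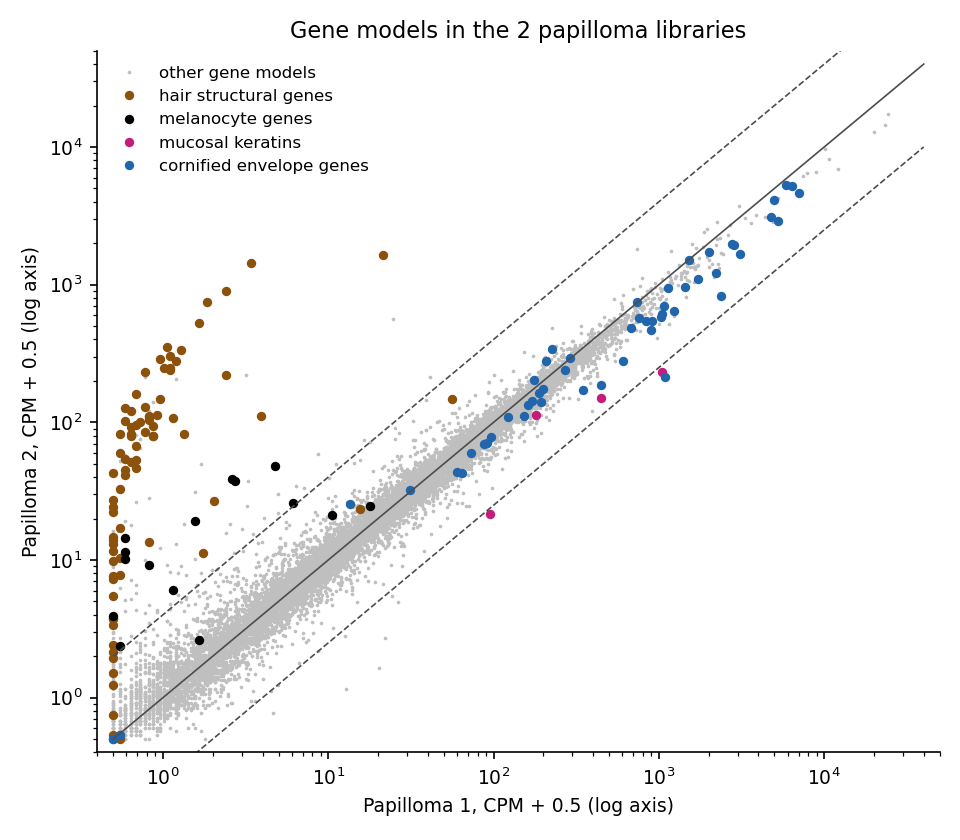
Each point is a gene model, with its CPM + 0.5 in papilloma 1 (x axis) and papilloma 2 (y axis), both on log axes; the solid line marks equal levels and the dashed lines 4-fold differences. Hair structural genes (brown) and melanocyte genes (black) lie above the upper dashed line in most cases, 2 mucosal keratins (pink) lie just under the lower one, and cornified envelope genes (blue) lie mostly slightly below the line of equal levels.

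Promoter sequences of hair genes with large ratios are shown first, because most of the matched hair structural windows share a motif. RefSeq promoters (GRCm38.p6) matched 55 of the 78 hair structural genes, and the motif TATAAA (either strand, 250 bases before to 50 after the start) was found in 81.8% of those 55 windows against 13.6% of all 32851 windows. CTTTGAA, the sequence bound by the LEF/TCF factors of Wnt signalling, was found in 25.5% against 5.14%, on either strand. Among the models at least 2-fold lower in papilloma 2, 57 windows matched, of which 24.6% held TATAAA and 1.75% held CTTTGAA, while 17.5% held TGANTCA, the AP-1 type site, against 14.5% of the hair structural windows and 7.81% of all windows. The bases upstream of the start of 3 inner root sheath keratin genes and of Krt13 are printed with matches to these motifs in capitals: TATAAA in the hair genes and a TGANTCA match in Krt13. Krt13 does not stand for all lower genes. Sprr3, also at least 4-fold lower in papilloma 2 and not printed, had TATAAA 33 bases before its start and 0 TGANTCA matches. A match describes the letters only. Krt71 lies at chr15:101743098-101743347, Krt25 at chr11:99322952-99323201, Krt27 at chr11:99351119-99351368 and Krt13 (the first of its 2 listed starts) at chr11:100121567-100121816, all on the minus strand.
Krt71: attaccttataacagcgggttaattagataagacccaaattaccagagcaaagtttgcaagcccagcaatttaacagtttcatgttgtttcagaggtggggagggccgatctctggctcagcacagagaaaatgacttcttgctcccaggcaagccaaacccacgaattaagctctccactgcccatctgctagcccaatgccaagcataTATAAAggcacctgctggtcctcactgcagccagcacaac
Krt25: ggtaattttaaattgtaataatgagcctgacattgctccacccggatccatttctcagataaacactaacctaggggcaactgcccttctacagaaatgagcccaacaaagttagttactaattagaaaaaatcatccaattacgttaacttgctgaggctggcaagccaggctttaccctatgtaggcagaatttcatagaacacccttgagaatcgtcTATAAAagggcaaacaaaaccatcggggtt
Krt27: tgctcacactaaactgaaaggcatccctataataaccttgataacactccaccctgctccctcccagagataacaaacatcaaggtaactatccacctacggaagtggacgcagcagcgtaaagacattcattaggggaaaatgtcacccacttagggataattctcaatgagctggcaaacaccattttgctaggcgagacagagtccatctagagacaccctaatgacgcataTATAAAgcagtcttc
Krt13: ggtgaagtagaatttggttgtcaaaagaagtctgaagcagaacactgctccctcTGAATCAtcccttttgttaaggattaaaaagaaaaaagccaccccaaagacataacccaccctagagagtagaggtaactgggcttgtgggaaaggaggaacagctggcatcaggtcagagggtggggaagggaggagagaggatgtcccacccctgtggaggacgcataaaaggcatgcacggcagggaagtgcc

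Most genes of the inner root sheath, the layer that shapes the growing hair, were counted in papilloma 2 and almost not in papilloma 1. Krt71 (gene model at chr15:101564380-101573528, mm9), a type II keratin of this sheath, stood at 4175 CPM in skin, 2.91 in papilloma 1, 1435 in papilloma 2 and 2.64 in the tumour. Krt25 (chr11:99177158-99184255, mm9), a type I partner, stood at 2826, 1.89, 897 and 1.40 CPM in that order. Tchh, which encodes trichohyalin, the granule protein that hardens the sheath, stood at 6329, 20.8, 1643 and 18.4 CPM. For each of these genes papilloma 1 was at the tumour's level and papilloma 2 was between that level and skin. The ratio of papilloma 2 to papilloma 1 was 493 (95% interval 385 to 642) for Krt71, 474 (349 to 661) for Krt25 and 78.9 (71.9 to 86.8) for Tchh. Of the 11 inner root sheath genes, 10 reached 10 CPM in a papilloma and 9 of those were at least 4-fold higher in papilloma 2, with a median log2 ratio of 6.56 against -0.03 over all models. Padi3 had the smallest log2 ratio of the list, 1.41, and stood at 390, 55.5, 148 and 130 CPM in skin, papilloma 1, papilloma 2 and tumour.

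The shaft proteins, which are made higher in the follicle, followed the same pattern. Among 15 hair shaft keratins, 13 reached 10 CPM and 12 of them were at least 4-fold higher in papilloma 2 (median log2 ratio 6.95). Krt31, a cortex keratin, stood at 474 CPM in skin, 0.0924 in papilloma 1, 101 in papilloma 2 and 1.38 in the tumour. Krt35, a keratin of the matrix and lower cortex, stood at 357, 0.416, 113 and 0.257 CPM. All 38 keratin-associated protein models that reached 10 CPM, of 52 in the table, were at least 4-fold higher in papilloma 2, with a median log2 ratio of 6.37. The 17 models with 0 counts in papilloma 1 were also set to the bound given by 3 counts, with nothing added. The other models kept the added 0.5 CPM. On these mixed scales the median was 6.71, which is not a bound on the first median. These small proteins crosslink the keratin filaments of the shaft. Krtap8-1 stood at 2408 CPM in skin, 1.15 in papilloma 1, 527 in papilloma 2 and 1.59 in the tumour. Several Krtap genes are near-identical copies, so the split of reads among them is uncertain.

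The 12 largest log2 ratios of all models, with 0.5 CPM added, were of hair genes or a neighbour of them. They were Krt71, Krt27, Krt25, Krtap7-1, Krtap8-1, Krtap1-5, Krtap14, Krtap22-2, Gm10229, Krtap15, Krtap11-1 and Krt33a, with log2 ratios between 7.88 and 8.72. With nothing added the order differs: Krtap16-10, at 0.0924 CPM in papilloma 1 and 126 in papilloma 2, would stand above Krt71. Gm10229 is in no list; it lies at chr16:89015522-89016091 (mm9), near Krtap22-2 at chr16:89010625-89011004, and stood at 718, 0.277, 213 and 0.701 CPM. Hair structural genes took 5.16% of all counts in skin, 0.0103% in papilloma 1, 1.08% in papilloma 2 and 0.0186% in the tumour. In papilloma 2 the share was between that of skin and that of papilloma 1.

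How much of the skin level was left was similar from gene to gene. Over the 50 hair structural genes with at least 100 CPM in skin, the level per total count in papilloma 2 was a median of 21.1% of skin, with quartiles of 17.7% and 24.4% and a highest value of 33.9%. In papilloma 1 the median was 0.0432% (quartiles 0.0282% and 0.0624%, highest value 10.1%) and in the tumour 0.0608% (highest value 27.3%). The series' cells cultured from tumours gave 0.0606% and 0.0404% in mSCC-20 and mSCC-38, with highest values of 65.7% and 110%. By median, the papilloma 1 level was within the range of the trace in the tumour and the cultures. The size of a ratio with such a level below the line is not exact.

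Regulators of the hair bulb were also higher in papilloma 2, but by less. Of 16 genes of the matrix and cortex, 10 reached 10 CPM and 4 were at least 4-fold higher: S100a3, Dsg4, Hoxc13 and Msx2. Hoxc13, a homeobox factor that switches on hair keratins, stood at 135 CPM in skin, 2.77 in papilloma 1, 36.9 in papilloma 2 and 0.514 in the tumour. Msx2, a homeobox factor of the matrix, stood at 102, 4.48, 29.8 and 0.327 CPM. S100a3, a calcium-binding protein of the hair cuticle, stood at 804, 2.68, 220 and 86.0 CPM. Over members with at least 1 CPM in a papilloma, papilloma 2 held a median of 31.5% of the skin level and papilloma 1 10.2%. Wnt5a, a secreted Wnt ligand and the list's only gene lower in papilloma 2 at 1 CPM or more, ran the other way at 62.2, 134, 114 and 254 CPM.

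Genes of hair follicle stem cells, the reserve in the bulge, separated the lesions less than hair structural genes did. Of 13, 11 reached 10 CPM and 1, Gli1, was at least 4-fold higher in papilloma 2. At 2-fold, 3 were higher and 0 lower, against 1.91% and 0.655% of all models. The median log2 ratio was 0.51, with 11 of the 13 higher in papilloma 2. Gli1, a Hedgehog target gene, stood at 70.4 CPM in skin, 2.17 in papilloma 1, 10.6 in papilloma 2 and 0.210 in the tumour. Lgr5, a Wnt co-receptor of cycling follicle stem cells, stood at 76.8, 5.26, 17.5 and 3.67 CPM. Krt15, the bulge keratin, stood at 1322, 141, 202 and 233 CPM, and Sox9, a factor of the outer root sheath, at 203, 49.96, 89.2 and 284 CPM. The median share of the skin level was 26.1% in papilloma 1, 34.98% in papilloma 2 and 25.7% in the tumour. By this median papilloma 1 was level with the tumour and above the trace of its hair structural transcripts. Its Gli1 and Lgr5 levels were well under that share of skin. Of 10 dermal papilla genes, 3 reached 10 CPM and none passed the 4-fold rule. Among these, Wif1, a Wnt inhibitor, stood at 29.5, 2.54, 11.0 and 0.210 CPM, a ratio of 4.34 (3.25 to 5.89) that falls under 4-fold once 0.5 CPM is added.

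Pigment genes were higher in papilloma 2 as well. Of 15 melanocyte genes, 9 reached 10 CPM and 7 of these were at least 4-fold higher in papilloma 2, with a median log2 ratio of 3.34. On the mixed scales used for the keratin-associated proteins, with the 1 gene at 0 counts in papilloma 1 set to its bound, the median was 3.48. Tyr, tyrosinase, the rate-limiting enzyme of melanin synthesis, stood at 26.7 CPM in skin, 0.0924 in papilloma 1 (2 counts), 14.1 in papilloma 2 and 0.0935 in the tumour, a ratio between the papillomas of 152 (41.9 to 1261). Tyrp1 stood at 99.6, 2.22, 37.1 and 0.608 CPM. Dct, which acts beside Tyrp1 in melanin synthesis, stood at 155, 4.25, 47.7 and 0.374 CPM, 11.2-fold higher in papilloma 2 (9.08 to 14.0). Papilloma 1 was 11.4-fold above the tumour for Dct, whereas for Krt71 it was 1.10-fold above it. The list's median level was 38.8% of skin in papilloma 2 and 2.19% in papilloma 1, which is above the trace of hair structural genes.

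**Figure D2:**
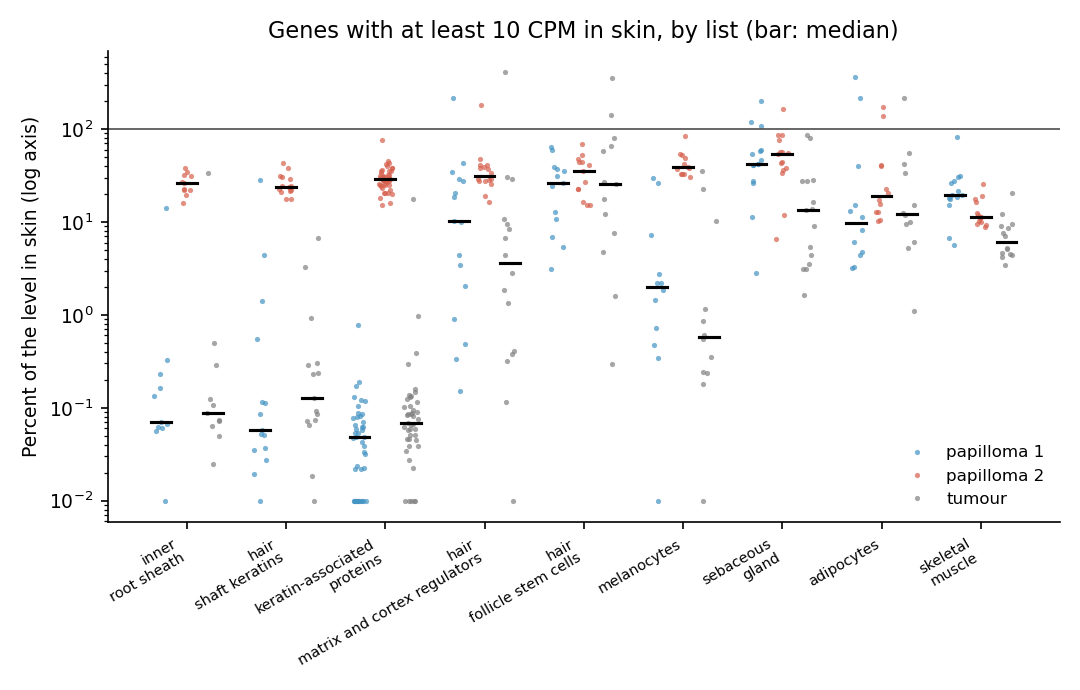
Each point is a gene with at least 10 CPM in skin, placed by its list (x axis) and its level as a percent of the skin level (log y axis) in papilloma 1 (blue), papilloma 2 (red) and the tumour (grey); black bars are medians, the horizontal line marks 100%, and levels under 0.01% are drawn at 0.01%. In the 3 lists of hair structural genes papilloma 2 sits at medians of 25.97%, 23.5% and 28.7% of skin while papilloma 1 and the tumour sit at trace, whereas in the stem cell and sebaceous lists the papillomas overlap.

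Other tissue carried into a skin biopsy did not move as 1 block with hair. Of 15 skeletal muscle genes, 12 were lower in papilloma 2, and the median log2 ratio was -0.68. Myh4, a fast myosin, stood at 476 CPM in skin, 393 in papilloma 1, 121 in papilloma 2 and 98.5 in the tumour. The summed muscle level was 13334, 2590, 1498 and 841 CPM. Fat cell genes went the opposite way by median (1.04), with 9 of 12 higher in papilloma 2. Adipoq, the adipocyte hormone adiponectin, stood at 81.5, 4.99, 12.7 and 8.04 CPM, whereas Fabp4, a fatty acid carrier also made by other cells, stood at 343, 1231, 594 and 735 CPM. Sebaceous gland genes, whose gland opens into the follicle, had a median log2 ratio of 0.12 and none of 12 at 10 CPM was 2-fold apart. Scd1, a fatty acid desaturase abundant in sebocytes, stood at 2307, 604, 842 and 376 CPM. The part of hair, fat and muscle content in the differences of the epidermal lists was not tested.

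Mucosal keratins were lower in papilloma 2 and higher still in the tumour. Krt13 (chr11:99978910-99982809, mm9), a type I keratin of the oral and oesophageal lining, stood at 2.16 CPM in skin, 1047 in papilloma 1, 232 in papilloma 2 and 4567 in the tumour. Its partner Krt4 (chr15:101748966-101755166, mm9) stood at 1.29, 95.1, 21.2 and 312 CPM. Both ran in the order skin, papilloma 2, papilloma 1, tumour, and were 4.52-fold (4.397 to 4.64) and 4.49-fold (4.10 to 4.92) higher in papilloma 1 than in papilloma 2. Krt78 stood at 54.3, 445, 150 and 76.0 CPM and Krt76, a keratin of the hard palate, at 18.8, 179, 112 and 134 CPM, so for these the tumour was not the highest library. All 4 were lower in papilloma 2, 2 of them at least 4-fold, and the median log2 ratio was -1.85.

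Other genes of the mucosal lining did not all follow. Sprr3 (chr3:92260424-92262642, mm9), an envelope precursor of oesophageal epithelium, stood at 0.951 CPM in skin, 1089 in papilloma 1, 215 in papilloma 2 and 836 in the tumour, 5.07-fold higher in papilloma 1 (4.93 to 5.22). Mal, a membrane sorting protein, stood at 13.1, 121, 55.3 and 949 CPM. Crnn, cornulin, went the other way at 179, 32.0, 103 and 29.4 CPM, as did Rhcg, an ammonium transporter, at 0.0991, 6.79, 17.6 and 2.60 CPM. Of the 13 that reached 10 CPM, 1 was 4-fold lower and none 4-fold higher in papilloma 2, with 9 lower, 4 higher and a median log2 ratio of -0.58. Members of both mucosal lists at least 2-fold lower in papilloma 2 were Krt13, Krt4, Krt78, Sprr3 and Mal, while Crnn and Rhcg were at least 2-fold higher.

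Stress keratins were high in both lesions and somewhat lower in papilloma 2. Krt16, a keratin induced by wounding and hyperproliferation, stood at 40.0 CPM in skin, 12117 in papilloma 1, 6955 in papilloma 2 and 1898 in the tumour. Krt6a stood at 449, 23328, 14540 and 11298 CPM and Krt6b at 29.0, 20032, 12922 and 5751 CPM; reads of these near-identical genes may have been split between them. Krt17 was level across the 3 lesions and lower in skin, at 1229, 1858, 1875 and 1923 CPM. The alarmins S100a8 and S100a9, which form calprotectin, were higher in papilloma 2: S100a8 stood at 18.1, 1178, 1748 and 253 CPM. S100a9 stood at 6.98, 1583, 1972 and 766 CPM. None of the 7 genes of the list was 2-fold apart.

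Basal and spinous keratinocyte genes differed by less than 2-fold throughout. Krt14 stood at 1837 CPM in skin, 24263 in papilloma 1, 17459 in papilloma 2 and 13397 in the tumour, and Krt5 at 3309, 7827, 6442 and 11989 CPM. Of 13 basal genes, 11 were lower in papilloma 2, with a median log2 ratio of -0.23; over all models with at least 1 CPM, 7510 of 13937 were lower in papilloma 2. Krt1 stood at 1347, 10115, 9611 and 95.4 CPM and Krt10 at 4577, 10665, 8202 and 93.1 CPM. Both lesions kept these spinous keratins above skin while the tumour had little of either. Of 8 spinous genes at 10 CPM none was 2-fold apart, and the largest difference was that of Krt77, a type II keratin, at 1240, 372, 210 and 156 CPM.

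Genes of the cornified layer were mostly a little lower in papilloma 2. Of 19 cornified envelope and granule genes, 17 were lower in papilloma 2, with a median log2 ratio of -0.48, and 1, Tgm3, was 2-fold lower. Tgm3, the transglutaminase that crosslinks the envelope, stood at 164 CPM in skin, 2389 in papilloma 1, 830 in papilloma 2 and 38.7 in the tumour. Lor, which encodes loricrin, the main envelope protein, stood at 1382, 2764, 1957 and 75.6 CPM. Ivl, involucrin, stood at 151, 271, 240 and 154 CPM. For Tgm3 and Lor both papillomas were above skin and the tumour was below it.

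Small proline-rich and late cornified envelope genes ran the same way. Of 13 small proline-rich genes, 10 were lower in papilloma 2, 3 of them at least 2-fold (Sprr3, Sprr2k and Sprr2j-ps), with a median log2 ratio of -0.61. Sprr2k stood at 0.396, 445, 186 and 164 CPM in skin, papilloma 1, papilloma 2 and tumour. Of 18 late cornified envelope genes, 16 were lower in papilloma 2 (median -0.33). The 4 with the largest differences were all of the Lce3 group, which is made in wounded and inflamed epidermis: Lce3a, Lce3b, Lce3c and Lce3f. Lce3a stood at 2.83, 607, 278 and 23.7 CPM. Members of these families are alike in sequence, so single members are uncertain.

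Enzymes of the skin barrier gave a similar picture. Alox12b, the lipoxygenase that prepares the lipid envelope, stood at 47.7 CPM in skin, 972 in papilloma 1, 410 in papilloma 2 and 78.5 in the tumour, 2.37-fold higher in papilloma 1 (2.32 to 2.43). It was the only 1 of 15 barrier lipid genes to be 2-fold apart, and 12 of the 15 were lower in papilloma 2 (median -0.36). Among 10 kallikreins and their inhibitors, proteases that shed the outermost cells, 8 were lower in papilloma 2 and none by 2-fold. Klk10 stood at 190, 4903, 2855 and 443 CPM. Stefin genes, which encode cysteine protease inhibitors, had a median of -0.01. Clade B serpins had a median of -0.21, and Serpinb3b, 1 of 13 that reached 10 CPM, was 2.20-fold higher in papilloma 2 (2.10 to 2.31) at 28.8, 100.2, 221 and 2.92 CPM.

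**Figure D3:**
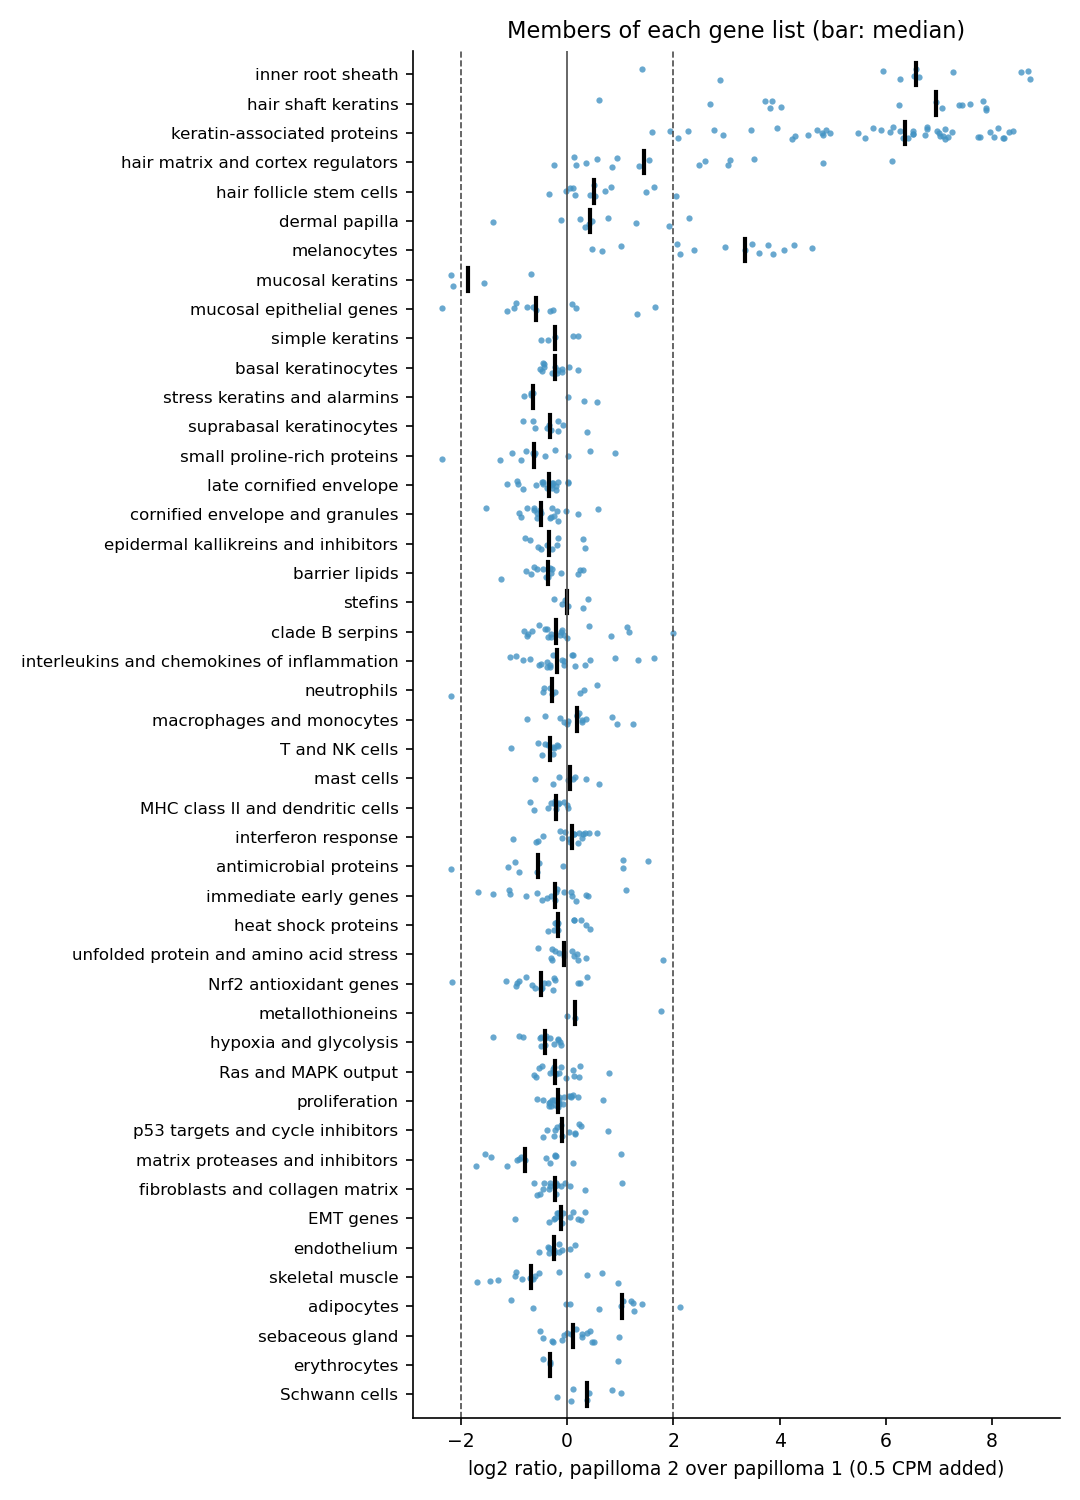
Each point is a list member with at least 1 CPM in a papilloma, placed by its log2 ratio of papilloma 2 over papilloma 1 (x axis, 0.5 CPM added) in the row of its list; black bars are list medians and dashed lines mark 4-fold differences. Hair structural and melanocyte lists sit far to the right, mucosal keratins furthest to the left, and nearly all other medians lie between -0.8 and 0.4.

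Genes of inflammation were present in both lesions with differences in both directions. Of 15 interleukins and chemokines at 10 CPM, 2 were 2-fold higher in papilloma 2 and 1 was 2-fold lower, with a median log2 ratio over the list of -0.18. Il19, a cytokine of the interleukin 10 family made by keratinocytes, stood at 0.139 CPM in skin, 26.4 in papilloma 1, 83.5 in papilloma 2 and 12.6 in the tumour, a ratio of 3.17 (2.89 to 3.48). Tslp, a keratinocyte cytokine that drives type 2 immunity, stood at 5.21, 10.1, 26.3 and 1.08 CPM. Il33, an alarmin of the interleukin 1 family, was lower in papilloma 2 at 47.3, 608, 289 and 100.5 CPM. For Il19 and Tslp papilloma 2 was the highest biopsy and for Il33 papilloma 1 was. Il1b stood at 1.62, 37.5, 22.9 and 74.5 CPM and the neutrophil attractant Cxcl2 at 0.0594, 22.8, 12.7 and 55.8 CPM, both lower in papilloma 2 by less than 2-fold.

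Markers of immune cells differed little. Among neutrophil genes, the receptor Cxcr2 stood at 1.33 CPM in skin, 33.8 in papilloma 1, 40.0 in papilloma 2 and 25.2 in the tumour. Ltf, lactoferrin of neutrophil granules and of glands and mucosa, was the exception: it stood at 1.25, 12.1, 2.30 and 1993 CPM, 5.27-fold higher in papilloma 1 (4.01 to 7.01). Macrophage genes had a median log2 ratio of 0.20. Mrc1, a receptor of tissue macrophages, stood at 68.6, 49.0, 94.8 and 35.8 CPM, and Arg1, arginase, which keratinocytes can also make, at 53.6, 939, 558 and 5788 CPM. No T or NK cell gene reached 10 CPM in a papilloma; Cd3e stood at 10.8, 2.31, 1.43 and 3.65 CPM. All 10 such genes at 1 CPM or more were lower in papilloma 2, with summed levels of 25.5 CPM in papilloma 1 and 19.4 in papilloma 2. Mast cell genes had a median of 0.07, antigen presentation genes of -0.21 and interferon response genes of 0.10.

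Antimicrobial proteins split. Of 9 at 10 CPM, 3 were at least 2-fold higher in papilloma 2 (Lcn2, Defb6 and Defb3) and 2 at least 2-fold lower (Ltf and Defb4). Lcn2, the siderophore-binding lipocalin, stood at 2.95, 9.42, 27.9 and 9.82 CPM in skin, papilloma 1, papilloma 2 and tumour. Defb4, a beta-defensin, stood at 0.218, 27.8, 12.7 and 1.47 CPM. Within the defensin family the lesions thus differed in opposite directions, Defb6 standing at 193, 93.6, 196 and 3.32 CPM.

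Stress genes differed by list. Of 19 immediate early genes, the first transcripts made after a growth or stress signal, 4 were at least 2-fold lower in papilloma 2 (Fosb, Nr4a1, Fosl1 and Atf3) and 1, Egr2, was 2-fold higher. Fosb stood at 6.74 CPM in skin, 20.9 in papilloma 1, 6.19 in papilloma 2 and 24.3 in the tumour. Fos itself stood at 13.2, 52.8, 37.9 and 58.6 CPM. Egr2 stood at 77.3, 23.7, 52.0 and 8.35 CPM. Fosb and Nr4a1 were the largest of these differences, with Nr4a1, an orphan nuclear receptor, at 17.1, 27.7, 10.3 and 13.4 CPM.

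Heat shock genes did not separate the lesions: none of 11 at 10 CPM was 2-fold apart, and Hspa1a stood at 39.6, 36.3, 46.5 and 17.6 CPM in skin, papilloma 1, papilloma 2 and tumour. Among 14 genes of unfolded protein and amino acid stress 1 was 2-fold apart. That was Chac1, which breaks down glutathione, at 164, 13.9, 50.1 and 9.89 CPM. Of 19 antioxidant genes of the Nrf2 pathway, 16 were lower in papilloma 2, with a median log2 ratio of -0.49. Gpx2, an epithelial glutathione peroxidase, stood at 1.84, 23.9, 4.94 and 3.23 CPM, 4.84-fold higher in papilloma 1 (4.01 to 5.87). Gsta4, which detoxifies lipid aldehydes, stood at 12.6, 1149, 521 and 1242 CPM. Mt4, the metallothionein of stratified epithelium, was 3.49-fold higher in papilloma 2 (3.09 to 3.94) at 136, 15.1, 52.5 and 0.164 CPM, while Mt1 was level at 208, 233, 234 and 235 CPM.

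All 15 genes of hypoxia and glycolysis were lower in papilloma 2, with a median log2 ratio of -0.41. Adm, adrenomedullin, stood at 6.06 CPM in skin, 23.6 in papilloma 1, 8.70 in papilloma 2 and 22.6 in the tumour. Ndrg1 stood at 184, 423, 226 and 439 CPM. For both, papilloma 1 was at the tumour's level and papilloma 2 was nearer to skin. Hk2, the hexokinase that starts glycolysis in growing cells, stood at 94.8, 381, 216 and 118 CPM, and here the tumour was nearer to skin than either papilloma.

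Matrix protease genes showed the largest shift outside hair, pigment and mucosal keratins on the lower side. Of 15, 13 were lower in papilloma 2, with a median log2 ratio of -0.79. Of the 13 at 10 CPM, 3 were at least 2-fold lower, Mmp3 and Mmp10 among them. Mmp3, stromelysin, stood at 15.9 CPM in skin, 37.7 in papilloma 1, 11.2 in papilloma 2 and 35.9 in the tumour, a 3.37-fold higher level in papilloma 1 (2.96 to 3.85). Mmp10 stood at 0.357, 47.0, 17.2 and 30.4 CPM. Timp3, an inhibitor of these proteases, was higher in papilloma 2 at 527, 77.2, 157 and 61.5 CPM. For Mmp3 papilloma 1 was level with the tumour.

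Dividing cells and stroma gave only small differences. Mki67, a marker of cycling cells, stood at 125 CPM in skin, 219 in papilloma 1, 237 in papilloma 2 and 263 in the tumour, and none of 22 proliferation genes was 2-fold apart (median -0.16). Hmga2, a chromatin protein of embryonic and invasive tissue, stood at 0.535, 46.1, 38.8 and 169 CPM. Of 15 genes of Ras and MAPK output at 10 CPM none was 2-fold apart; the largest difference was in Dusp6, an ERK phosphatase, at 86.6, 174, 302 and 755 CPM. Here papilloma 2 was nearer to the tumour. Fibroblast and collagen genes had a median of -0.23 and endothelial genes of -0.24, with summed endothelial levels of 396 CPM in papilloma 1 and 352 in papilloma 2.

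**Figure D4:**
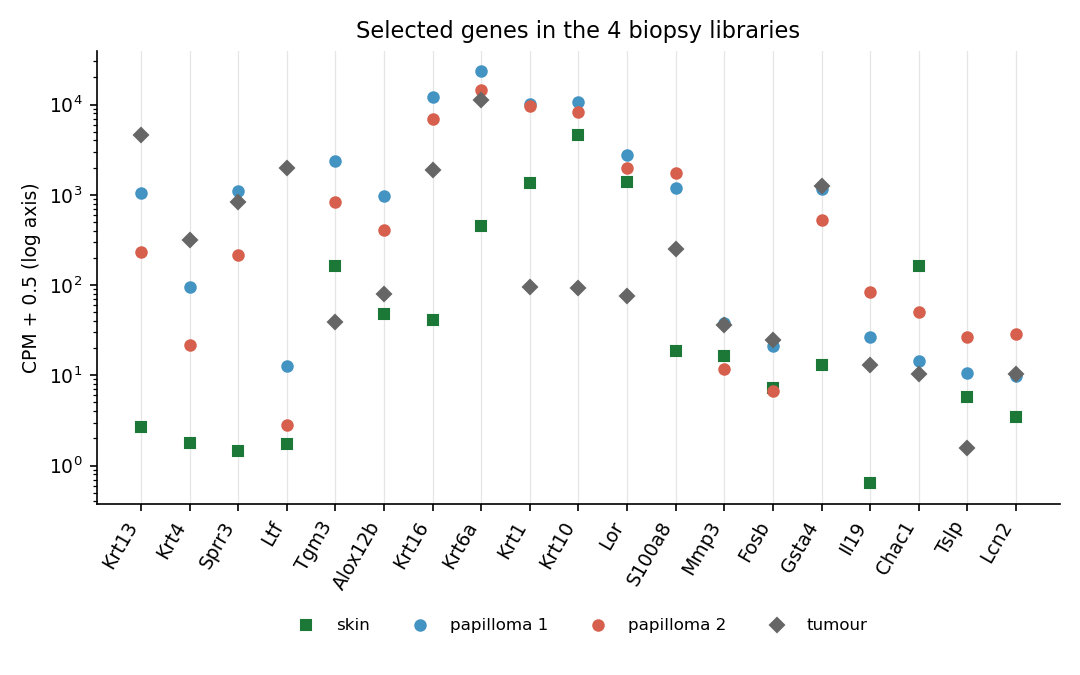
Levels of 19 genes named in the text (x axis) in the 4 biopsy libraries, as CPM + 0.5 on a log y axis; each marker is 1 library. Krt13 and Krt4 run in the order skin, papilloma 2, papilloma 1, tumour, Krt1, Krt10 and Lor are high in both papillomas and low in the tumour, and Il19, Tslp and Lcn2 are highest in papilloma 2.

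Which lesion lay nearer to the carcinoma depended on what was measured. Over 14131 models, the Pearson r with the tumour was 0.887 for papilloma 1 and 0.861 for papilloma 2, against 0.738 for skin, while the r with skin was 0.804 and 0.874. Models at least 4-fold from the tumour numbered 754 of 10297 (7.32%) for papilloma 1, with 474 (4.6%) higher and 280 (2.72%) lower than in the tumour. For papilloma 2 they numbered 843 of 10427 (8.08%), with 547 (5.25%) higher and 296 (2.84%) lower, and for skin 1584 of 11083 (14.3%). By these measures papilloma 1 was the nearer. The median absolute log2 difference from the tumour gave the other order, 0.468 for papilloma 1 and 0.450 for papilloma 2, and 7653 models were nearer to the tumour in papilloma 2 against 6474 in papilloma 1. Large differences were thus fewer in papilloma 1 and the typical small difference was smaller in papilloma 2.

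Most of the gap in the first measures went with hair and pigment genes. Without the hair and melanocyte lists, r with the tumour was 0.885 for papilloma 1 and 0.878 for papilloma 2, and models at least 4-fold away numbered 744 and 763. The median absolute difference was then 0.470 and 0.444. Most hair structural genes are nearly absent from the tumour as well as from papilloma 1, so these genes by themselves place papilloma 1 closer. Of the 108 models 4-fold higher in papilloma 2, 106 were also at least 4-fold higher in skin than in the tumour and 0 were lower. Of the 9 models 4-fold lower in papilloma 2, 7 were lower in skin than in the tumour and 0 higher. Among all 9919 tested models 6.12% were 4-fold higher and 4.15% 4-fold lower in skin than in the tumour, in a comparison that shares no library with that of the papillomas other than through scaling.

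A second measure placed each lesion on the way from skin (0%) to tumour (100%) on the log2 scale, for models at least 4-fold apart between those references. For the 581 of 11083 models (5.24%) higher in the tumour, the median was 56.1% in papilloma 1 and 47.5% in papilloma 2, and papilloma 1 was the further along in 436. For the 1003 (9.05%) lower in the tumour, the medians were 64.5% and 45.9%, with papilloma 1 further along in 627. Without the hair and melanocyte lists the values were 56.3% and 47.6% for 580 models, and 60.7% and 50.2% for 902. Papilloma 1 was still further along without these lists, by a smaller margin for genes lower in the tumour. The lists do not hold every gene with levels like those of hair genes. Of the 108 models 4-fold higher in papilloma 2, 71 were in any list. Unlisted ones such as Gm11563 (434, 0.369, 139 and 0.514 CPM in skin, papilloma 1, papilloma 2 and tumour) stayed in here and in the measures above. Their part in the remaining gap was not tested. Scaled by total counts alone, with all lists kept, the medians for genes higher in the tumour were 45.8% and 43.0%, a smaller gap, and those for genes lower in it 73.4% and 54.5%.

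By list, papilloma 1 was nearer to the tumour in 15 of 15 hair shaft keratins, 14 of 15 melanocyte genes and 11 of 11 neutrophil genes. It was also nearer in 9 of 14 matrix protease genes and in 9 of 15 hypoxia genes. Papilloma 2 was nearer in 17 of 19 cornified envelope genes and 16 of 18 late cornified envelope genes, which the tumour has at low levels. Both lesions were far from the tumour in these lists. The median absolute log2 difference was 3.90 in papilloma 1 and 4.05 in papilloma 2 for the former, and 5.61 and 5.28 for the latter. For the former the median thus gave the other order. Papilloma 2 was nearer in 16 of 22 proliferation genes too. The mucosal keratins split 2 and 2: Krt13 and Krt4 were nearer in papilloma 1, where the tumour was 4.36-fold and 3.29-fold above it, against 19.7-fold and 14.7-fold above papilloma 2. Over all models 45.8% were nearer in papilloma 1.

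**Figure D5:**
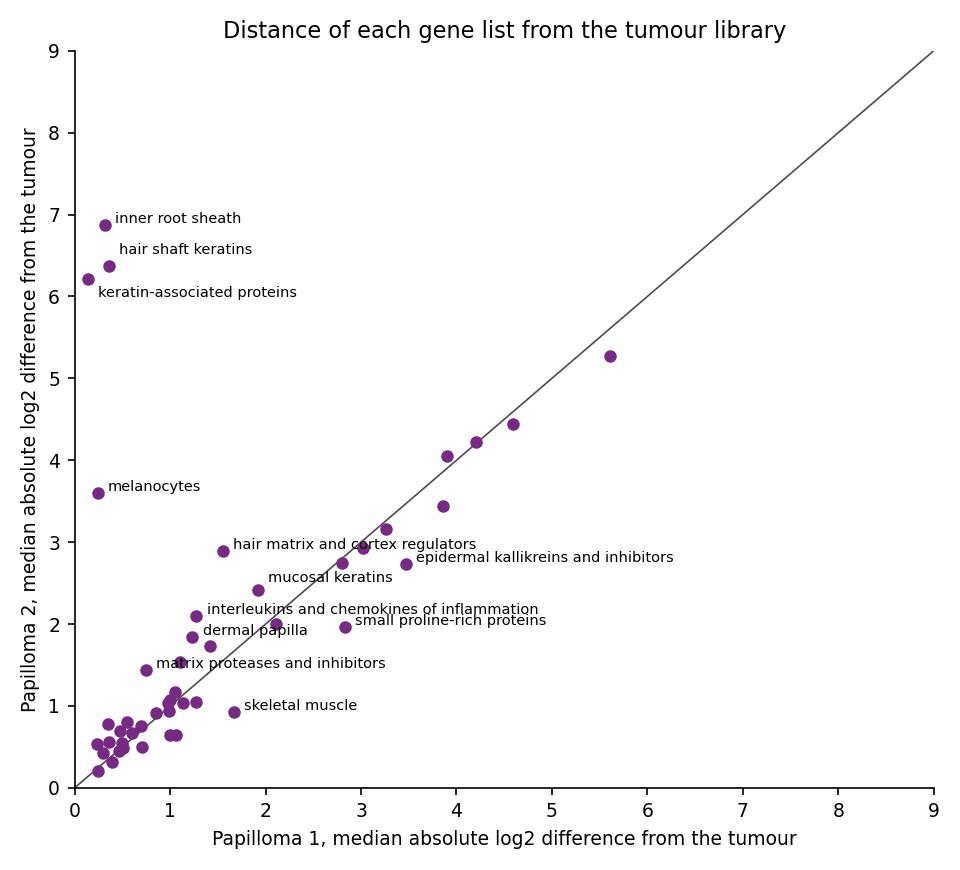
Each point is a gene list, with the median absolute log2 difference of its members from the tumour in papilloma 1 (x axis) and papilloma 2 (y axis); the line marks equal distance. Hair structural lists and melanocytes lie furthest above the line (papilloma 1 nearer). Hair matrix regulators, interleukins and chemokines, matrix proteases, dermal papilla genes and mucosal keratins (1.92 and 2.41) also lie above it. Small proline-rich proteins, kallikreins and skeletal muscle lie below it (papilloma 2 nearer).

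Models in no list were also examined. Those at least 4-fold lower in papilloma 2 included Bpifa5, Plch1 and 2300002M23Rik. Bpifa5, of a family of secreted lipid-binding proteins of mucosal surfaces, was listed with 0 counts in skin and stood at 19.7 CPM in papilloma 1, 1.15 in papilloma 2 and 0.0935 in the tumour, 17.1-fold higher in papilloma 1 (12.01 to 25.2). Plch1, a phospholipase C, stood at 0.713, 12.2, 0.661 and 14.5 CPM. Plch1 was at similar levels in papilloma 1 and the tumour, whereas Bpifa5 was high in papilloma 1 alone of the 4 biopsies. On the higher side, the 12 largest unlisted log2 ratios were of Gm10229, 5430421N21Rik, Gm11563, Gprc5d, Gm11559, Gm11567, Gm11938, Gm11568, AY026312, Lyg2, Fam26d and Gm11595. All 12 were above 100 CPM in skin except Lyg2, which stood at 96.7, 0.0462, 51.5 and 0.0234 CPM. Gprc5d, an orphan receptor of hair-forming cells, stood at 522, 0.323, 121 and 0.585 CPM.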

How the data were processed

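Papilloma 1, papilloma 2, skin and tumour were read from the deposited table of 23726 gene models, which holds raw counts per library (the authors applied no normalisation to them, per the file headers) and RPKM. RPKM values, which the authors made from the counts, gene length and a library total, per the file headers, were used only to check the counts: that total was 99.4% to 99.5% of the summed counts. Per the submitters' processing notes, the genome build was mm9. Aligner, counting program and strand setting were not given in the sources used, and reads of overlapping, antisense or near-identical models cannot be told apart. Libraries were made with a small RNA kit for SOLiD, per the labels' protocols.

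Counts were scaled by TMM (edgeR 4.0.16, R 4.3.3) over the 4 biopsies. List medians use members with at least 1 CPM in a papilloma. With 1 library a side there was no test. Alternatives were DESeq2 1.42.0 size factors, total counts, TMM over the papillomas, other added values, minimum levels and folds, and leaving out lists. Named genes were the 12 highest and lowest log2 ratios (0.5 CPM added) past the rule of size and the same among unlisted genes. Up to 4 members per list with the largest log2 ratios, and defining members, were also named. The members and all 48 lists were chosen with earlier results of these data known. Atf3 and Defb3 were named after their values were seen, to spell out a count. Positions between skin and tumour were measured after seeing the data. Flg, Ly6g, Trac, Mzb1, BC005685, Pi3, Hba-a1 and Hba-a2 were not matched by symbol. The size rule was tested on simulated counts. Some genes that the rule names are not reported here.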

Additional observations from a re-analysis of the deposited data

How the results depend on the processing

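No paired analysis was possible because each group has 1 library. The 108 higher and 9 lower models became 189 and 65 at 2-fold. With 2-fold also used for skin against tumour, skin was above the tumour in 165 and below it in 2 of the higher ones. Among the lower ones it was above in 13 and below in 34. With 4-fold kept for skin against tumour these counts were 150, 2, 9 and 25, against 6.12% above and 4.15% below among all 9919 tested models. The share of all models at 2-fold was not counted. Models at least 2-fold from the tumour were 2262 for papilloma 1 and 2259 for papilloma 2, so the order of the papillomas in that count turned. The 4-fold counts were 161 and 12 at 1 CPM or more, 113 and 8 by total counts, 104 and 9 where the lower interval bound had to pass, and 102 and 7 with 2 CPM added. Total counts moved the median log2 ratio of all models by 0.15, and the median absolute difference from the tumour (papilloma 2 minus papilloma 1) from -0.0183 to -0.0498. The r with the tumour (papilloma 1 minus papilloma 2) moved from 0.0261 to 0.00712 without the hair and melanocyte lists, 0.00727 without muscle, fat and sebaceous lists as well, and 0.0607 at a mean of 10 CPM or more. Depth limits genes with few counts, and the cut of 10 CPM was a chosen setting, not a measured limit.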

Other observations

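Genes chosen here after their values were seen add 3 patterns that no list covers. Sycp1, a protein of the synaptonemal complex of meiosis, stood at 1.78 CPM in skin, 1.06 in papilloma 1, 30.7 in papilloma 2 and 1.08 in the tumour, 28.9-fold higher in papilloma 2 than in papilloma 1 (95% interval 19.1 to 45.8, counting error only). It was high in papilloma 2 alone of the 4 biopsies, unlike the hair genes. Chi3l4, a chitinase-like protein of type 2 inflammation, stood at 2.36, 734, 1821 and 6.52 CPM, and Alox8, a lipoxygenase induced in skin by phorbol ester, at 63.8, 38.5, 145 and 0.795 CPM. Krt75, the keratin of the companion layer between the inner and outer root sheaths, stood at 701, 40.7, 214 and 6.03 CPM; in papilloma 1 it was further above the tumour than the inner root sheath keratins were. Capn8, a calpain of the stomach, had 0 counts in papilloma 1 against 14.8 CPM in papilloma 2. With a floor of 3 counts for papilloma 1 it was at least 106-fold higher in papilloma 2. Its skin and tumour levels are not given here, so whether Capn8 followed skin as most hair genes did was not tested. Most models at least 4-fold higher in papilloma 2 (106 of 108) were also at least 4-fold higher in skin than in the tumour.

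Sex-linked genes do not separate the lesions, but of 5 in the list only 1, Xist, reached 1 CPM in a papilloma. Summed over the list, the levels were 969 CPM in skin, 765 in papilloma 1, 981 in papilloma 2 and 2215 in the tumour, nearly all Xist. Xist, the transcript of the inactive X chromosome, stood at 969 CPM in skin, 764 in papilloma 1, 981 in papilloma 2 and 2215 in the tumour. The median log2 ratio of papilloma 2 over papilloma 1 per chromosome ran from -0.07 on chromosome 7 (1080 models) to 0.03 on chromosome X (429 models), without the hair and melanocyte lists. No chromosome as a whole was shifted between the lesions by as much as 0.1 on the log2 scale.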
